A study of Mus musculus with 2 samples.

Results

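The genes described here encode the surface antigens by which mouse hematopoietic stem and progenitor cells are sorted. They are Kit, Eng, Slamf1, Ly6a, Fcgr3, Fcgr2b, Cd48, Cd34, Flt3 and Procr, 10 of the 20660 genes with a name on the arrays. The rule takes them by name and uses no measured value. Every probe whose transcript accession belongs to one of these genes was taken, which gave 13 probes on 23 spots.

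The cells were pre colony forming unit-erythrocyte (pre CFU-E) cells, an early stage of the erythroid lineage, from the bone marrow of wild-type (WT) C57BL/6 mice and of ESAM-knockout (ESAM-KO) mice labelled with the same strain. ESAM is an adhesion molecule of endothelial cells and of hematopoietic stem cells, and its loss in these mice was not limited to blood cells. All mice were 8 to 12 weeks old and had received 120 mg/kg of 5-fluorouracil (5-FU) as a single injection, a drug that kills cycling marrow cells, 8 days before the sort. Marrow cells of 3 mice per genotype were pooled before the sort, and their RNA was amplified and hybridised to 1 array per genotype, so there was no untreated group, no replicate, no SD and no p-value. Genotype, animal pool, sort and amplification cannot be told apart in these values.

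The sort used the proteins of several of these genes. Cells negative for the lineage antigens, which include Mac1 and Gr1 of myeloid cells, were kept when they carried c-Kit (Kit), endoglin (Eng) and CD150 (Slamf1), lacked Sca1 (Ly6a), were negative or low for the low-affinity Fc gamma receptors (Fcgr3 and Fcgr2b, which the antibody does not separate) and were low for CD41. CD48, CD34, Flt3 and the endothelial protein C receptor (Procr) were not part of the gate. Hematopoietic stem cells are known to carry c-Kit, Sca1, CD150 and the protein C receptor while lacking CD48 and Flt3. As cells commit to the erythroid lineage they lose Sca1, CD34 and Flt3 and gain endoglin, while granulocyte-monocyte progenitors keep CD34 and gain Fc gamma receptors. The arrays measured transcripts, whereas the sort had set the protein level of the gated antigens.

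Intensities are the background-subtracted spot signals of the scanner software, in arbitrary units. Their 75th percentile was 201.4 in WT and 251.1 in ESAM-KO, and each log2 ratio below is ESAM-KO over WT after each array was set to that percentile, which lowers every ratio by 0.32 compared with unscaled intensities. The software marks a spot as well above background when it clearly exceeds the local background. The lowest probe signal so marked was 12.6 in WT and 13.2 in ESAM-KO, with 0 saturated spots. A probe so marked on 1 array only gives a bound on its ratio, computed against the higher of the dim probe's own signal and that lowest signal, and a probe marked on neither gives no ratio. The error beside a ratio is that of the scanner software for single spots and leaves out the pools and the amplification. Levels of different genes are not compared with each other, because each probe has its own response. The sums over marker lists given below are weighted by that response, so a single bright probe can set them.

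Of the 10 sorting markers, 7 were well above background on both arrays, 1 (Ly6a) on the WT array only and 2 (Fcgr2b and Procr) on neither. By the 2-fold criterion 1 of the 8 markers with a ratio, Ly6a, was lower in ESAM-KO and 0 were higher. Across all named genes with a ratio, 15.4% were past 2-fold, 8.43% lower and 6.99% higher. Among the 7 markers measured on both arrays, 3 ratios were above 0 and 4 were below, with a median log2 ratio of -0.12. The median over all 12615 genes measured on both arrays was -0.02, and its 25th and 75th percentiles were -0.38 and 0.34. The 7 measured ratios ran from -0.80 to 0.18, inside the 5th and 95th percentiles of all genes, -1.24 and 1.02. This holds for the probe taken for each gene, since the other probes of Cd48 (1.11) and Cd34 (-1.38) lay outside those percentiles. Without scaling between the arrays 12.7% of genes were higher and 5.12% were lower past 2-fold, and the count of markers did not change.

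**Figure D1:**
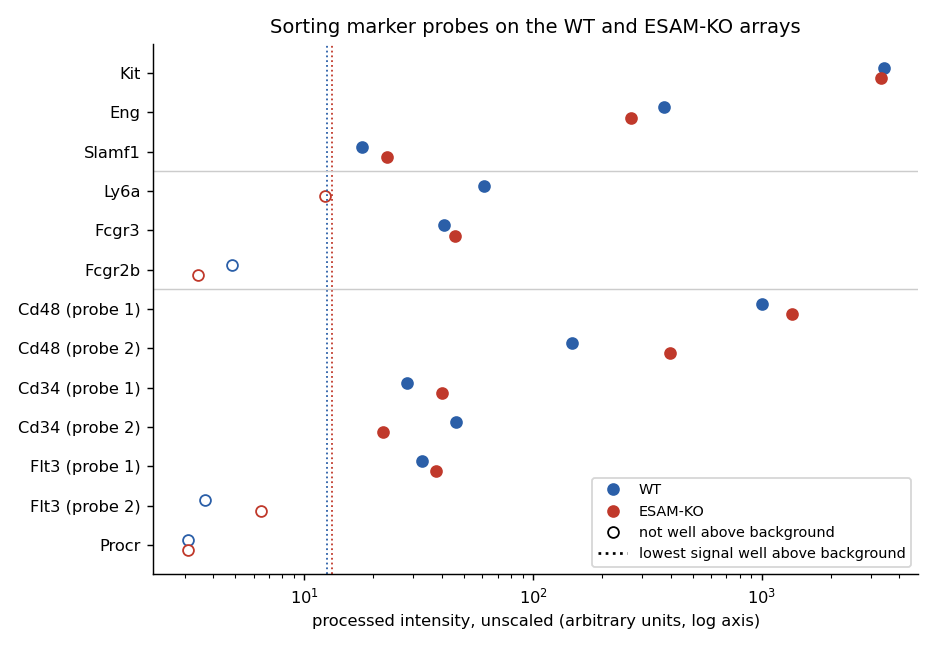
Processed intensity of each sorting marker probe in WT (blue) and ESAM-KO (red), before scaling, on a log axis. Open points are not well above background, dotted lines mark the lowest signal that is (12.6 and 13.2), and grey lines separate the genes selected for, selected against and not gated. The point of Ly6a is filled at 61.1 on the WT array and open at 12.3 on the ESAM-KO array.

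The 3 genes whose proteins the gate required were all well above background on both arrays. Kit, the receptor tyrosine kinase for stem cell factor (NM_001122733), read 3362 and 3466 on its 2 WT spots and 3316 and 3336 on its 2 ESAM-KO spots. These are repeat spots of 1 probe, and their spread is that of spotting alone. Their log2 ratio was -0.36, with a scanner error of 0.20, and 26.2% of the genes measured on both arrays had a lower ratio. Without scaling the Kit ratio was -0.04, beside a median over all genes of 0.30.

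Eng encodes endoglin, a co-receptor for BMP9 and other ligands of the TGF-beta superfamily, and in marrow it marks the passage from megakaryocyte-erythroid to erythroid progenitors. Its probe (NM_001146350) read 374.9 in WT and 268.7 in ESAM-KO. The log2 ratio of -0.80 (error 0.21), or 1.74-fold lower in ESAM-KO, was the lowest of the 7 measured markers, and 10.8% of the measured genes were lower still. Where the scaling, normalization or background correction was changed, it stayed below 0, between -0.93 and -0.48, and did not reach 2-fold. The alternatives that changed filters or the choice of probe could not move it. Eng has 1 probe with 1 spot, well above background on both arrays. In bulk RNA, fewer cells with a transcript and less of it per cell cannot be told apart.

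Slamf1 encodes CD150, a receptor that binds itself on neighbouring cells. Its probe (NM_013730) was dim, at 17.8 in WT and 23.0 in ESAM-KO, for a log2 ratio of 0.05 (error 0.39). The sort for CD150 protein was thus accompanied by a transcript signal only a little above the lowest that counts as well above background, on both arrays.

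Of the genes whose proteins the gate limited, Fcgr3 was well above background in both genotypes, Ly6a in WT only and Fcgr2b in neither. Ly6a encodes Sca1, a GPI-anchored protein of stem cells and of many activated cells. Its probe (NM_010738) read 61.1 on the WT array, well above background, and 12.3 on the ESAM-KO array, where it was not, although the software still counted that spot as significantly above its background. With the scaling used here the Ly6a signal was at least 5.79-fold lower on the ESAM-KO array, a log2 bound of -2.53 (error 0.43). Without scaling between the arrays the bound was -2.22. The sort had taken Sca1-negative cells from both genotypes, so the WT signal was read in cells that the gate had taken as lacking the protein. This value rests on 1 spot per array. In the same comparison 11 of 13 markers of granulocyte-monocyte progenitors and neutrophils, given below, were lower past 2-fold, and their part in the value of Ly6a was not tested. With normexp background correction and quantile normalization, which compress dim signals, the ratio was -0.78 and did not reach 2-fold.

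Fcgr3 encodes CD16, the activating low-affinity IgG receptor. Its probe (NM_010188) read 40.9 in WT and 45.5 in ESAM-KO, or -0.17 as a log2 ratio (error 0.26), and without scaling the ratio was 0.15. Fcgr2b encodes CD32, the inhibitory low-affinity IgG receptor. Its probe (NM_001077189) was spotted 10 times, and 0 of the 10 spots were well above background on either array. The WT spots ran from 2.65 through a median of 4.51 to 10.2, and the ESAM-KO spots from 2.76 through a median of 3.13 to 5.48. The ranges overlapped, and the software counted 5 of the WT spots and 2 of the ESAM-KO spots as significant. No ratio is given for Fcgr2b, and of the pair of receptors that the antibody stains only Fcgr3 was measurable on these arrays.

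**Figure D2:**
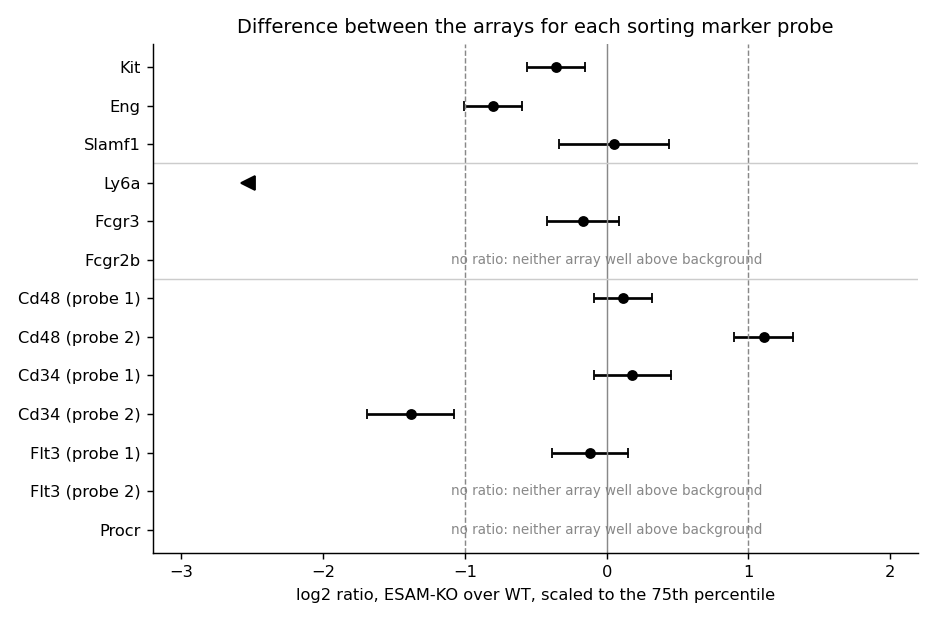
Log2 ratio of ESAM-KO over WT for each probe of the sorting markers, after scaling each array to its 75th percentile. Bars are the error of the scanner software, the arrowhead is a bound, dashed lines mark 2-fold and grey lines separate the gate classes. The bound of Ly6a lies at -2.53, and the probes of Cd48 and of Cd34 lie apart from each other.

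Among the genes outside the gate, probes of the same gene could differ widely. Cd48 encodes a GPI-anchored ligand of the SLAM family that stem cells lack and most progenitors carry. Its brighter probe gave 1005 in WT against 1356 in ESAM-KO, for a log2 ratio of 0.11 (error 0.20). Its dimmer probe, for the same transcript (NM_007649), read 147.4 and 396.2, a ratio of 1.11 (error 0.21), or 2.16-fold higher in ESAM-KO. Both probes were above 0, but only 1 of them passed 2-fold. Cd48 was thus well above background at both probes in cells sorted without regard to CD48.

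Cd34 encodes a sialomucin of early progenitors and endothelium that is lost as progenitors become erythroid. Its probes (both NM_133654) pointed in opposite directions. The probe with the slightly higher mean log2 signal read 28.2 in WT against 39.9 in ESAM-KO, with a ratio of 0.18 (error 0.27). The other read 46.1 and 22.0, a ratio of -1.38 (error 0.31), or 2.61-fold lower in ESAM-KO. The mean of the probes was -0.60. No direction can be given for Cd34 from these arrays.

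Across the arrays 2568 genes had exactly 2 probes measured on both, and the log2 ratios of such a pair differed by a median of 0.417. They differed by more than 1 for 20.7% of these genes and had opposite signs for 38.8%. The Cd48 pair differed by 0.99, and 20.8% of the pairs were at least that far apart, while for the Cd34 pair, at 1.56, that share was 9.58%. When a gene was counted by any of its probes, 3 of the 8 markers with a ratio (Ly6a, Cd48 and Cd34) were past 2-fold, beside 19.8% of all genes with a ratio.

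Flt3 encodes the receptor tyrosine kinase for Flt3 ligand, which marks multipotent and lymphoid-primed progenitors. Its brighter probe (NM_010229) read 32.7 in WT against 37.5 in ESAM-KO, with a ratio of -0.12 (error 0.27) that became 0.20 without scaling. Its other probe, at 3.70 and 6.44, was not well above background on either. Procr encodes the endothelial protein C receptor, a marker of long-term stem cells. Its probe (NM_011171) read 3.10 on both arrays, was not well above background on either and gives no ratio.

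Spots of the same probe differed more at low signal. Some probes were spotted at least 8 times on each array, and the SD of the log2 ratio between their spots had a median of 0.576 at a mean signal under 13, 0.451 from 13 to 30, 0.236 from 30 to 100, 0.104 from 100 to 1000 and 0.0502 above 1000. This spread is technical, within 1 pair of arrays, and leaves out the differences between pools, so a ratio larger than it is not shown to differ between the genotypes. Kit, Eng and the brighter Cd48 probe lay where spots differed little, but without scaling the Kit ratio was -0.04, and scaled to the median of all probes the Cd48 ratio was -0.02. Slamf1 (0.05), Fcgr3 (-0.17) and Flt3 (-0.12), as well as the first Cd34 probe (0.18), had ratios smaller than the median SD of their range of signal. Differences of that size were not detectable at these signals.

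**Figure D3:**
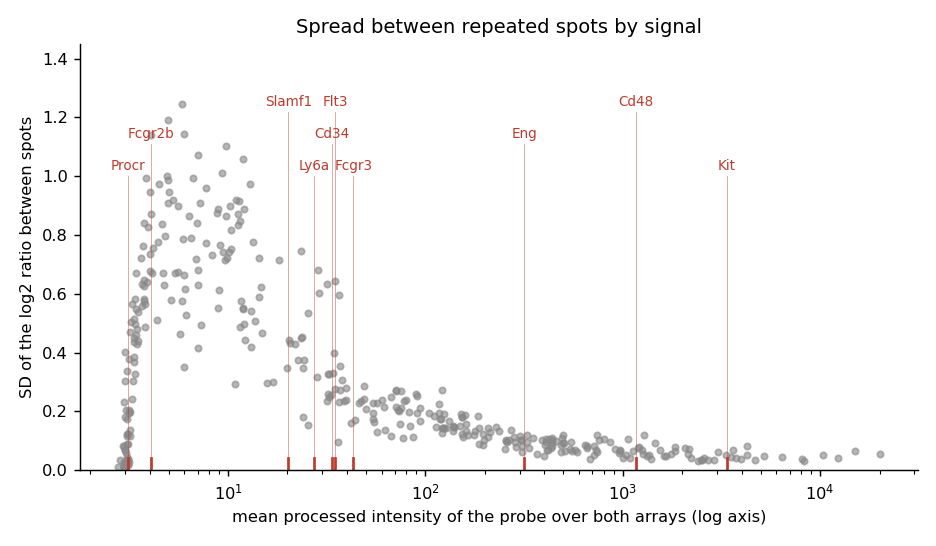
SD between spots of the log2 difference, ESAM-KO minus WT, for every probe spotted at least 8 times on each array (grey), against its mean intensity on a log axis. Red lines mark the mean intensity of each sorting marker's brighter probe, and their heights only hold the labels. The spread falls from a median of 0.576 under a signal of 13 to 0.0502 above 1000, so that Kit, Cd48 and Eng sit in the narrow range.

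Genes of the same families and pathways were taken as whole lists. The Fc receptor list holds Fc gamma and Fc epsilon receptors, Fc receptor-like genes and the phosphatase SHIP1 (Inpp5d) that acts downstream of CD32. Of its 9 genes 5 had a ratio, and 3 of those were lower in ESAM-KO past 2-fold and 0 higher, with a median of -1.38. Fcer1g, the signalling chain shared by the activating receptors, read 456.8 in WT against 90.7 in ESAM-KO, for a log2 ratio of -2.65. Fcgr4, an activating receptor of myeloid cells that lies beside Fcgr3 and Fcgr2b on chromosome 1, read 163.1 and 49.1 (-2.05), and Inpp5d read 305.0 and 146.2 (-1.38). Fcgr1, the high-affinity receptor, had a ratio of 0.12 and Fcrlb of -0.09. Fcgr3 itself, at -0.17, was closer to the last of these than to its signalling chain.

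The Ly6 family shares the chromosome 15 cluster of Ly6a. Of 10 genes listed 8 had a probe with a name and 7 a ratio, of which 1 was lower past 2-fold and 0 higher, with a median of -0.42. Ly6c1, an antigen of monocytes and endothelium, read 718.1 in WT and 423.4 in ESAM-KO at its brighter probe, a ratio of -1.08, and its dimmer probe had a ratio of -3.48. Ly6e, at 20197 and 17346, had a ratio of -0.54, Gpihbp1 of -0.40 and Ly6i of 0.16. Members of this family are close in sequence, and which of them a probe can bind was not examined here.

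The SLAM list holds relatives of Slamf1 and Cd48 and their adaptors. Of its 11 genes 5 had a ratio, 1 was lower past 2-fold and 0 higher, and the median was -0.03. Ly9, a receptor of lymphocytes that lies near Cd48 on chromosome 1, read 296.8 in WT and 95.1 in ESAM-KO (-1.96), and its other probe also was lower, at -1.36. Cd244a, the receptor for CD48, read 1728 and 2107 and had a ratio of -0.03. The adaptors Sh2d1a and Sh2d1b1 were not well above background on either array.

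The list around Kit and Flt3 holds their ligands, related receptor kinases and signalling proteins. Of its 18 genes 17 had a ratio, 2 were higher and 1 lower past 2-fold, and the median was -0.04. The ligand genes read higher on the ESAM-KO array, Flt3l at 109.8 in WT and 357.1 in ESAM-KO (1.38) and Kitl at 24.2 and 44.5 (0.56, short of 2-fold). Sos1, an exchange factor for Ras, read 24.6 and 77.1 (1.33), whereas Pdgfrb, a related receptor kinase, went from 117.4 to a signal not well above background, with a log2 bound of -3.48. Csf1r, the related receptor of macrophage colony-stimulating factor, had a ratio of -0.16 at its brightest probe and of 0.66 at a dimmer one. Stat5b, a transcription factor that c-Kit and the erythropoietin receptor activate, had a ratio of -0.46.

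The endoglin list holds the BMP9 and TGF-beta receptors, their ligands, Smads and Id target genes. Of its 14 genes 12 had a ratio, 1 was higher past 2-fold and 0 lower, and the median was -0.05. Acvrl1, the signalling partner of endoglin for BMP9, had a ratio of -0.05, Tgfbr3, the other co-receptor of this kind, of -0.66, and the target genes Id1 and Id3 of 0.59 and 0.61. The gene past 2-fold was Tgfbr2, with a bound of 2.27 at its brighter probe and a ratio of -1.04 at the other, so no direction can be given for it.

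Of the 2 sialomucins related to CD34, Podxl read 82.9 in WT and 184.3 in ESAM-KO (0.83) and Emcn read 24.4 and 15.8 (-0.95), both short of 2-fold. Of the 5 genes around protein C and thrombin 4 had a ratio. Tissue factor (F3) read 176.2 in WT and 4.44 in ESAM-KO, where it was not well above background, with a bound of -4.06, and its other probe had a bound of -1.03. Thbd, which activates protein C together with thrombin, had a ratio of -0.93, F2r of -0.11 and Proc of -0.01.

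Of the other antigens used in the study's stainings, 11 of 12 had a probe with a name and 9 a ratio, 1 (Ly6c1) lower past 2-fold and 0 higher, with a median of -0.40. The targeted gene itself, Esam, read 27.4 in WT against 20.6 in ESAM-KO, with a ratio of -0.73 (error 0.31), which is a weak check of the genotypes since both values were low. Itga2b (CD41), for which the gate kept low cells, read 35.8 and 29.7 (-0.59). Tfrc (CD71), the transferrin receptor, had a ratio of 0.89. Itgam (Mac1), a lineage antigen of myeloid cells, was well above background on both arrays at all 3 of its probes, but at very unlike levels. The brightest read 76376 in WT and 82076 in ESAM-KO (-0.21). The others read 269.6 and 115.9 (-1.54) and 81.7 and 69.8 (-0.55).

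**Figure D4:**
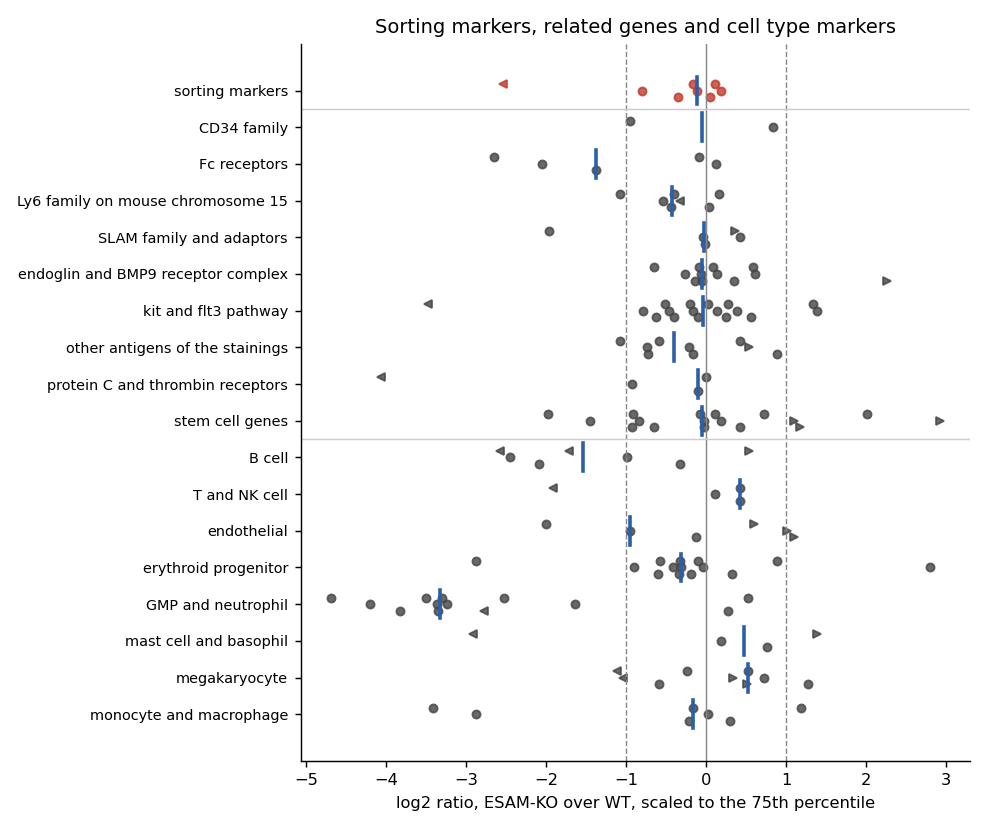
Log2 ratios of ESAM-KO over WT for the sorting markers (red), the genes related to them (middle block) and markers of cell types (lower block). Each point is a gene well above background on both arrays, each arrowhead a bound, each blue bar the median of the measured genes and the dashed lines 2-fold. The median of the granulocyte-monocyte progenitor (GMP) and neutrophil markers, -3.32, lies far to the left of that of the sorting markers, -0.12.

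The label of the cells was checked with marker genes. All 14 erythroid progenitor markers examined were well above background on both arrays, among them Gata1 (5959 in WT and 5889 in ESAM-KO), Klf1 and Epor, with a median ratio of -0.32, 1 lower past 2-fold (Slc4a1) and 1 higher (Tlcd4). Markers of granulocyte-monocyte progenitors and neutrophils were present as well. All 13 had a ratio, and 11 of these were lower in ESAM-KO past 2-fold and 0 higher, with a median of -3.32 and an unscaled summed intensity of 110140 in WT and 85855 in ESAM-KO. Csf3r alone made up 50144 and 75698 of these sums, and the other 12 genes summed to 59996 in WT against 10157 in ESAM-KO, or -2.88 on the scaled log2 scale. The gate was set against Mac1 and Gr1, which neutrophils carry, and against high Fc gamma receptor staining. The paper takes granulocyte-monocyte progenitors as lineage-negative cells with high Fc gamma receptor staining, so the gate against Mac1 and Gr1 does not remove them. Ctsg read 1373 and 66.6 (-4.68), Mpo 1703 and 149.9 (-3.82) and Lcn2 9604 and 1057 (-3.50), while the remaining genes, Csf3r (0.28) and Cebpa (0.52), were not lower. Ly6a was also lower past 2-fold. So were 1 of the 7 Ly6 family genes with a ratio (Ly6c1) and 3 of the 5 Fc receptor genes (Fcer1g, Fcgr4 and Inpp5d). The rest of these 2 lists were not called, among them Ly6i (0.16) and Fcgr1 (0.12), and neither was Fcgr3 (-0.17). The brightest probes of Itgam (-0.21) and Csf1r (-0.16) stayed short of 2-fold, but another Itgam probe was at -1.54. The part of granulocyte-monocyte progenitors and neutrophils in any of these values was not tested.

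Among the other cell types, 4 of the 7 B cell markers with a ratio were lower past 2-fold and 0 higher (summed intensity 586.9 in WT and 233.1 in ESAM-KO before scaling, -1.65 as a scaled log2 ratio). Of the 10 monocyte and macrophage markers with a name 2 were lower past 2-fold, Lyz2 (-3.41) and Vcam1 (-2.88), and C1qa was higher (1.19). The summed intensity, 7031 and 7643 before scaling and mostly 1 Csf1r probe (6554 and 7310), was lower in ESAM-KO after it (-0.20). Other Csf1r probes read only 63.2 and 124.6, and 9.99 and 16.1, the last pair giving no ratio. Without Csf1r the scaled log2 ratio of the sum was -0.84. Of the 9 endothelial markers 6 had a ratio, 2 higher and 1 lower (Pecam1, -1.99), and the sum, 2388 and 2553 before scaling and mostly Kdr (2056 and 2345), was also lower after it (-0.22), while Cdh5, which defines the type, did not rise clearly above background in either genotype. Of the 9 megakaryocyte markers 1, Vwf (1.28), was higher past 2-fold and 2 were lower (sum 1604 and 2151 before scaling, 0.10 as a scaled log2 ratio). The part of these cell types in the values of Ly6a, Eng and Cd34, which endothelial or lymphoid cells also express, was not tested.

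**Figure D5:**
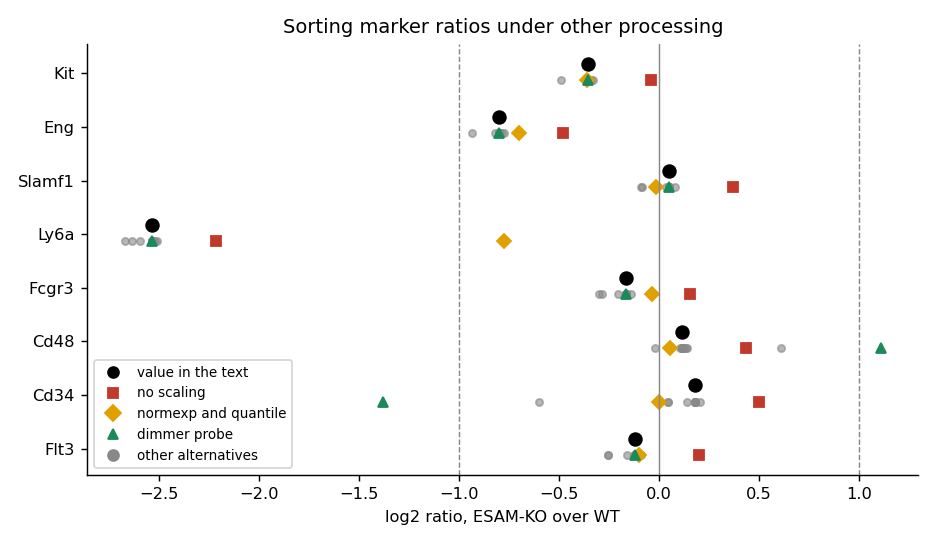
Log2 ratio of ESAM-KO over WT of the 8 sorting markers with a ratio, as given in the text (black, a bound for Ly6a) and under the alternative ways of processing (coloured or grey). Dashed lines mark 2-fold. Without scaling (red squares) every marker moves to the right, Ly6a stays left of the 2-fold line except with normexp (-0.78), and Cd34 and Cd48 move most when the dimmer probe is used.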

How the data were processed

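Cells were sorted per the labels, and 20 ng of total RNA was amplified, labelled with Cy3 and hybridised to 1-colour Agilent SurePrint G3 mouse arrays, 1 per genotype. The authors scanned with Agilent Feature Extraction (version 10.10.1.1 in the submitters' processing notes), and the deposited processed intensity is background-subtracted and detrended within an array and not scaled between arrays, and a table of the same intensities, used as an alternative. The methods state that values were normalized, without the method, and a 2-fold criterion.

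Each intensity was taken as log2 and set relative to its array's 75th percentile over 59305 non-control spots. Outlier-flagged spots (254, 0 of them on the marker probes) were left out, spots were averaged, and a probe counted as well above background when over 50% of its spots did. Accessions were matched without version to RefSeq (GRCm38.p6, names and gene order only), which named 27235 of 55681 probes and 20660 genes. A gene took its probe with the highest mean log2 signal, and 14136 genes had a ratio. By plan the named genes were the 10 markers, the antigens of the stainings and up to 5 of each list, those past 2-fold by size of ratio first and then the brightest. Some lists depart from that order, among them the erythroid markers, where Klf1 and Epor are named though some brighter genes are not. Names outside that order were added after their values were seen. The markers and lists were chosen with earlier results of these data known. Some genes of the lists are not reported here. Both arrays share a slide and scan, and their number limits the precision. Python 3.11.15, numpy 2.4.6, pandas 2.3.3, R 4.3.3 and limma 3.58.1 were used. Alternatives changed the scaling, background correction, filters, probe of a gene and fold criterion.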

Additional observations from a re-analysis of the deposited data

How the results depend on the processing

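The 8 markers with a ratio gave 119 values under 15 alternatives. Of these 108 lay within the scanner error of the reported value, and 11 moved by more. Many of the 108 are the reported value itself. Keeping outlier spots, requiring all spots well above background and setting a signal floor left each marker's ratio unchanged. So did taking the probe with the lowest scanner error. Requiring both arrays well above background changed no ratio either, apart from removing that of Ly6a. The count of 108 therefore overstates how far the ratios were tested. Ly6a, the marker past 2-fold, kept its direction in all 14 alternatives with a value. Without scaling between the arrays the median ratio of the measured markers was 0.20 in place of -0.12, while the median of all genes moved from -0.02 to 0.30, and Fcgr3 and Flt3 turned from below to above 0. The count of markers past 2-fold, all of them lower, was 0 with normexp and quantile normalization and 0 when both arrays had to be well above background, since Ly6a then has no ratio. Taking the dimmer probe of each gene, an alternative chosen after seeing the data, gave 3 past 2-fold, 1 higher (Cd48) and 2 lower (Ly6a and Cd34, whose ratio turned from 0.18 to -1.38). Scaling to the median of all probes moved the median of all genes to -0.15 and Cd48 to -0.02. Ly6a was lower past 2-fold in 13 of the 14 alternatives that gave it a value, and at 3-fold and 4-fold it remained the only marker called. Normexp was run on median spot signals, which the files hold. No paired analysis was possible because only 1 array represents each genotype, and no array could be left out for that reason.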

Other observations

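Genes other than the sorting antigens that mark hematopoietic stem cells were also taken as a list. Of 20 genes 17 had a ratio, 4 were higher and 2 lower past 2-fold in ESAM-KO, and the median of the measured genes was -0.05. Hlf, a transcription factor of stem cells, read 14.8 on the WT array, not well above background, and 139.9 on the ESAM-KO array, a log2 bound of 2.92. Mycn, a regulator of stem cell growth, read 15.7 and 79.0 (2.01). Ctnnal1 had a bound of 1.18, and the bound of Tek, the receptor of angiopoietin, was also past 2-fold. Prom1 read 64.1 and 20.4 (-1.97) and Pdzk1ip1 read 35.1 and 16.0 (-1.45), with its other probe at -0.51. All but Hlf among these genes stayed under a signal of 100 on both arrays, where spots of one probe differ most.

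Of the T and NK cell markers 4 of 8 had a ratio and 1 was lower past 2-fold. Of the mast cell and basophil markers with a name 4 of 8 had a ratio, 1 higher and 1 lower past 2-fold.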
